A study of Saccharomyces cerevisiae with 6 samples.

Results

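The vacuolar sorting genes (VPS) and the vacuolar ATPase genes (VMA) of the budding yeast Saccharomyces cerevisiae were followed in a strain with wild-type TRA1 and in one with the temperature-sensitive allele tra1-2ts. Members are the genes whose symbol is VPS or VMA followed by a number, each read from its brightest probe set, with VPS71 and VPS72 left out because their products are subunits of a chromatin remodeller. This gave 53 genes of the 5551 measured, 39 VPS and 14 VMA genes. Membership rests on names alone, so genes of the same complexes that carry other names are described apart, and VPS75, whose product is a histone chaperone, is kept. Cultures in rich medium (YPD) were moved from 30 to 37 °C, and RNA taken 60, 90 and 120 min later was hybridised to 1 array per strain and time, 6 arrays in all and 3 per strain. Tra1 is the large scaffold protein that the coactivators SAGA and NuA4 share, and activators contact it. Both strains are MATa and carry ura3-52, lys2-801, ade2-101, trp1Δ63, his3Δ200 and leu2Δ1. In both, HIS3 replaces the chromosomal TRA1 gene, and a centromeric LEU2 plasmid supplies either wild-type TRA1 or tra1-2ts. Each genotype is therefore 1 plasmid-borne strain, and arrays of unshifted cells were not analysed here. The 3 times of a strain serve as its replicates, and the labels leave unsaid whether their cultures were separate. The p-values therefore weigh differences against the spread of 3 arrays that differ in time as well and may otherwise be technical.

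The vacuole is the acidic, hydrolase-filled organelle of yeast, the counterpart of the lysosome. The V-ATPase acidifies it: a peripheral V1 sector hydrolyses ATP and drives a ring of proteolipid subunits in the membrane-bound Vo sector, which moves protons into the lumen. The VPS genes were found in screens for mutants that secrete vacuolar carboxypeptidase Y, and their products form the machines that carry proteins from the Golgi through endosomes to the vacuole: a phosphatidylinositol 3-kinase, the tethers CORVET, HOPS and GARP, retromer, and the ESCRT complexes that sort membrane proteins into vesicles inside the endosome.

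The values are RMA signals (robust multi-array average) on a log2 scale, where a difference of 1 is a doubling, and a gene is measured relative to the rest of its array. The array medians over all probe sets lay between 6.143 and 6.195. Over the tested genes alone they were lower in tra1-2ts at each time. At 60, 90 and 120 min they were 6.40, 6.43 and 6.37 in wild type and 6.35, 6.38 and 6.33 in tra1-2ts. TRA1 mRNA was higher in tra1-2ts, 9.37 ± 0.016 against 8.44 ± 0.30 (mean ± SD, n = 3), and its probe set does not tell the alleles apart. LEU2 of the plasmid was lower by 1.06 ± 0.11 (SE; limma adjusted p = 0.000246), and HIS3, at 8.32 in wild type and 8.47 in tra1-2ts, did not pass the test. RNA came from whole cultures, so less RNA in every cell and fewer cells that hold it cannot be told apart.

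More VPS genes were higher than lower in tra1-2ts, while VMA genes went both ways. Of the 39 VPS genes 10 were higher and 4 lower, and of the 14 VMA genes 2 were higher and 2 lower (limma, adjusted p under 0.05, Benjamini-Hochberg over all genes). Over all 5551 genes, 18.3% were called higher and 22.3% lower, 40.6% in all, against 34.0% of the 53 members. The share of members called was thus no larger than that of the array. The direction of that background turned with the scaling: with array medians centred 1248 of all genes were higher and 1114 lower, and with quantile normalization over the tested genes 1170 and 1145. The VPS genes then gave 15 higher and 4 lower, and 14 and 4. No member reached a 2-fold difference, and 8 of the 18 called members differed by at least 1.5-fold. All 18 had 1 direction at all 3 times, and none of them had overlapping groups of arrays. Passing the test on the same arrays makes both likely, so neither is further evidence. Groups did not overlap for 25 members, 47.2%, against 53.8% of all genes. In 17 of these members tra1-2ts was the higher strain (26.1% of all genes) and in 8 the lower (27.7% of all genes). With both 90 min arrays left out, 7 VPS genes and 1 VMA gene passed, and 1004 of all genes. The calls that ended were those of VPS25, VPS33, VPS53, VPS55, VPS68, VPS70, VPS74, VMA5, VMA7 and VMA11 (adjusted p = 0.0556 to 0.223). Without both 120 min arrays those of VPS70, VPS74, VMA5, VMA7 and VMA11 ended (0.0515 to 0.159), and without both 60 min arrays those of VPS74 and VMA5 (0.0636 and 0.0701).

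**Figure D1:**
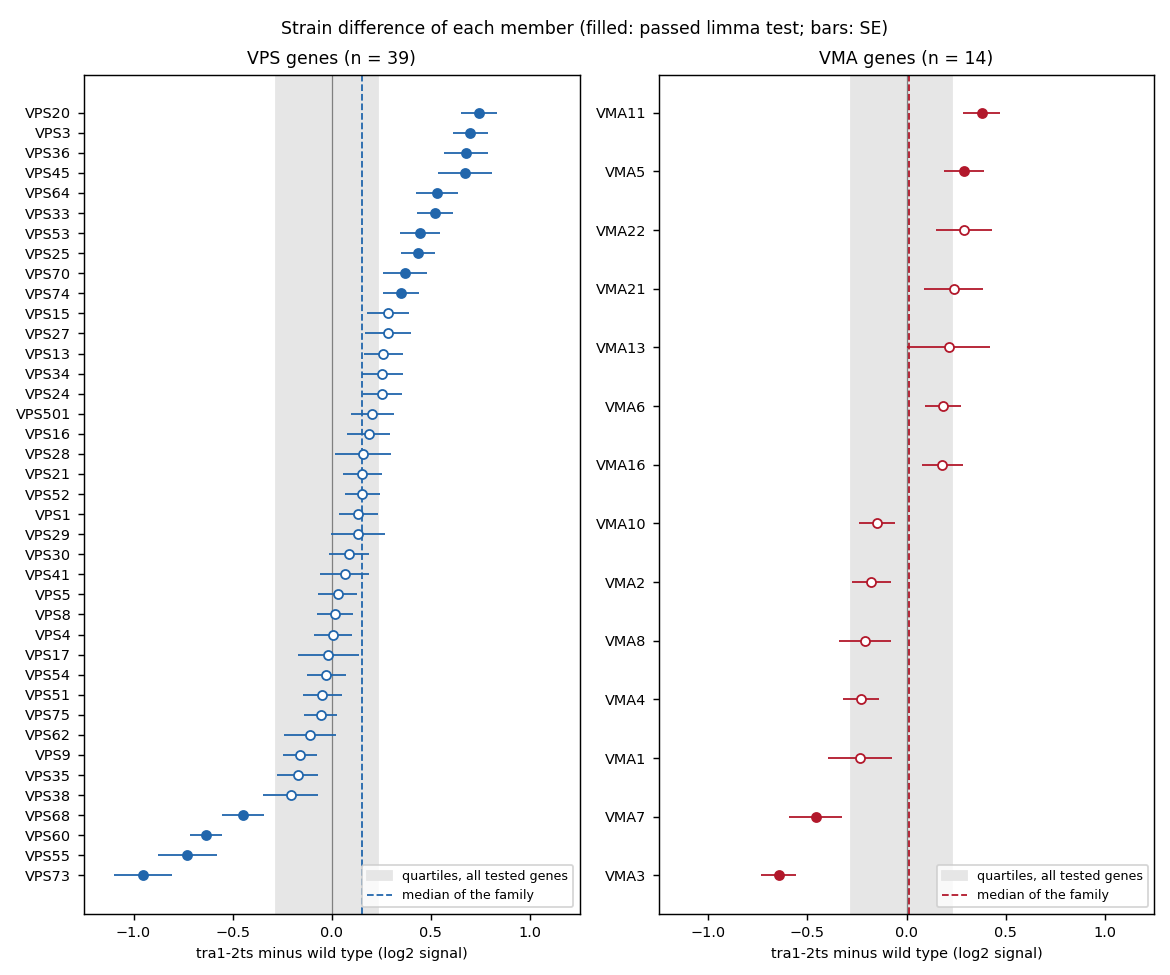
Fitted difference of each member, tra1-2ts minus wild type, in log2 units with its standard error, for the 39 VPS genes and the 14 VMA genes. Filled points passed the limma test, the grey band spans the quartiles of all 5551 genes (-0.28 to 0.23), and dashed lines mark the family medians of 0.15 and 0.01. VPS20 (0.74) and VPS73 (-0.95) bound the VPS genes, and VMA11 (0.38) and VMA3 (-0.65) the VMA genes.

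In the proton-conducting Vo sector, VMA3 was lower in tra1-2ts and VMA11, which encodes a proteolipid of the same ring, was higher. VMA3 encodes subunit c, the main proteolipid. It read 12.51, 12.57 and 12.60 at 60, 90 and 120 min in wild type and 12.03, 11.83 and 11.88 in tra1-2ts. The lowest wild-type array thus lay above the highest tra1-2ts array, and the difference was -0.65 ± 0.09 (SE; 1.57-fold lower, limma adjusted p = 0.00085). VMA11, subunit c′, read 9.81, 9.83 and 9.76 in wild type and 10.04, 10.29 and 10.21 in tra1-2ts. Its tra1-2ts arrays were all higher, by 0.38 ± 0.09 (1.30-fold, adjusted p = 0.0123), and the call ended without the tra1-2ts 90 min array (adjusted p = 0.0647). VMA16, the third proteolipid (subunit c″), and VMA6, the subunit d that links ring and stalk, had differences of 0.18 ± 0.10 and 0.18 ± 0.09 and did not pass (adjusted p = 0.193 and 0.142).

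In the V1 sector 1 gene was lower and 1 higher, and 6 of the 8 genes had a lower mean in tra1-2ts. VMA7, subunit F of the central stalk, was called lower. It read 8.58, 8.81 and 9.05 in wild type at 60, 90 and 120 min and 8.46, 8.41 and 8.19 in tra1-2ts, so the strains lay 0.12 apart at 60 min and 0.85 at 120 min. The difference over all arrays was -0.46 ± 0.13 (1.37-fold lower, adjusted p = 0.0245). VMA5, subunit C, which holds V1 on Vo, went the other way and was called higher. It read 8.67, 8.53 and 8.45 in wild type and 8.96, 8.81 and 8.74 in tra1-2ts. Its difference was 0.29 ± 0.10 (1.22-fold, adjusted p = 0.0467), with about the same gap at each time. Both calls were marginal, and leaving out 1 array was enough to end them. Leaving out any array other than the wild-type 60 min one ended that of VMA5 (adjusted p = 0.0533 to 0.137), and leaving out either 90 min array or either 120 min array ended that of VMA7 (adjusted p = 0.0588 to 0.081).

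The other V1 genes did not pass. These are VMA1 and VMA2, the catalytic A and regulatory B subunits (differences of -0.24 ± 0.16 and -0.18 ± 0.10), VMA4 and VMA10 of the peripheral stalks (-0.23 ± 0.09 and -0.15 ± 0.09), VMA8 of the central stalk (-0.21 ± 0.13) and VMA13, the regulatory subunit H (0.21 ± 0.21). VMA4 came closest: its 3 tra1-2ts arrays, 10.55, 10.37 and 10.52, all lay under the wild-type arrays, 10.77, 10.71 and 10.65 (adjusted p = 0.0745). VMA1 is the member with more than 1 probe set, and the probe sets disagreed on the call. The brighter one gave -0.24 ± 0.16, and the other -0.45 ± 0.11 with an adjusted p of 0.011 when all probe sets were tested as rows. With the probe sets of each gene averaged, VMA1 was called lower (difference -0.34, adjusted p = 0.0486), and 5 VMA genes passed. VMA1 encodes a precursor from which a homing endonuclease splices itself out, and which part of the transcript each probe set reads was not tested.

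Among V-ATPase genes that carry other names, VPH1 moved most. VPH1 encodes the subunit a of the vacuolar enzyme, which carries the proton channels next to the ring. It read 11.33, 11.33 and 11.29 in wild type and 10.57, 10.32 and 10.26 in tra1-2ts. All 3 tra1-2ts arrays lay below wild type, by 0.94 ± 0.10 as fitted (1.91-fold lower, adjusted p = 0.000315). STV1, the isoform of subunit a in the Golgi and endosomes, had means of 7.97 (wild type) and 8.004 (tra1-2ts) and did not pass (difference 0.03 ± 0.10, adjusted p = 0.811). PKR1, which serves assembly of the enzyme in the endoplasmic reticulum, was lower by 0.53 ± 0.09 (adjusted p = 0.00204). RAV1 and RAV2, of the RAVE complex that reassembles V1 with Vo, were higher by 0.43 ± 0.11 and 0.39 ± 0.11 (adjusted p = 0.0117 and 0.0207). The RAV1 call ended without both 90 min arrays (0.131) or both 120 min arrays (0.0585), and those of RAV2 and RTC5 without both 90 min arrays (0.143 and 0.209). Those of RAV2 and RTC5 also ended without both 60 min arrays (0.0919 and 0.144), and that of RTC5 without both 120 min arrays (0.0699). RTC5, which promotes disassembly, was higher by 0.28 ± 0.09. OXR1 and VOA1 had differences of -0.06 ± 0.20 and -0.115 ± 0.105 and did not pass (adjusted p = 0.84 and 0.41). The RAV2 call ended without the wild-type 60 min, the tra1-2ts 60 min or the tra1-2ts 90 min array (adjusted p = 0.0521 to 0.0909), and that of RTC5 without any array but tra1-2ts at 120 min (0.0616 to 0.149). Of 9 such genes, 3 were higher, 2 lower and 4 did not pass, so 55.6% were called against 40.6% of all genes, with a median of 0.03. The assembly factors VMA21 and VMA22 of the endoplasmic reticulum had differences of 0.24 ± 0.15 and 0.29 ± 0.14, and their partner VPH2 0.21 ± 0.09; none of these passed. The VMA22 call appeared without the tra1-2ts 120 min array (difference 0.45, adjusted p = 0.0166).

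**Figure D2:**
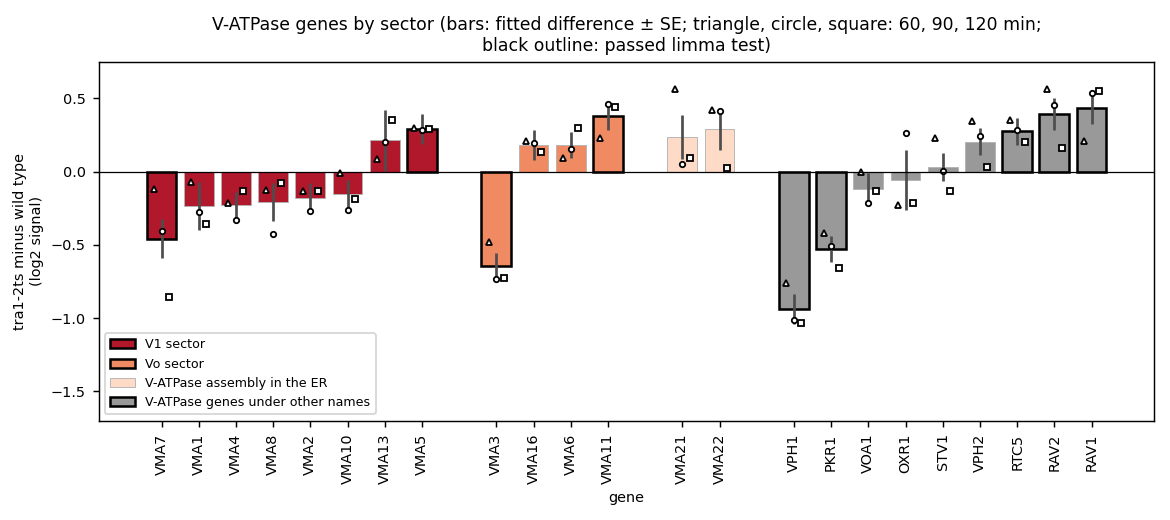
Difference between tra1-2ts and wild type (log2 signal) for V-ATPase genes, with V1 genes, Vo genes, VMA assembly factors and genes under other names as separate blocks. Bars give the fitted difference over 3 arrays per strain with its standard error, black outlines mark genes that passed the test, and small symbols give the difference at 60, 90 and 120 min. VMA3 (-0.65) and VPH1 (-0.94) stand lowest in their blocks, and VMA11 (0.38) and RAV1 (0.43) highest.

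Of the tether genes VPS33 and VPS3 were higher in tra1-2ts. HOPS and CORVET tether membranes to the vacuole and to endosomes, and share VPS16 and VPS33 among other subunits. VPS33, which also binds SNARE proteins, read 6.26, 6.12 and 6.06 in wild type at 60, 90 and 120 min and 6.62, 6.71 and 6.66 in tra1-2ts. The groups did not overlap, and the difference was 0.52 ± 0.09 (1.43-fold, adjusted p = 0.00235). VPS3, a subunit of CORVET, read 3.32, 3.30 and 3.25 in wild type and 3.91, 4.08 and 3.97 in tra1-2ts. It was higher by 0.70 ± 0.09 (1.62-fold, adjusted p = 0.000508). The wild-type arrays of VPS3 lay under the mean of the brightest of 4 mouse control probe sets, 3.93, so this fold depends on the background. VPS16, VPS8 of CORVET and VPS41 of HOPS had differences of 0.19 ± 0.11, 0.02 ± 0.09 and 0.07 ± 0.12 and did not pass. Neither did the tether genes under other names, PEP3 (0.26 ± 0.10, with both means under the brightest mouse control), PEP5 (0.18 ± 0.12) and VAM6 (-0.02 ± 0.10). Of the 8 HOPS and CORVET genes 2 were thus higher and none lower, against 18.3% and 22.3% of all genes.

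VPS45 and VPS53, which serve traffic between the Golgi and endosomes, were also higher. VPS45 encodes the Sec1-family protein that works with endosomal SNAREs. It read 4.85, 5.05 and 4.85 in wild type and 5.89, 5.48 and 5.40 in tra1-2ts, farthest apart at 60 min, with a difference of 0.67 ± 0.14 (1.59-fold, adjusted p = 0.00478). PEP12, the endosomal SNARE gene found in the same screens, was higher as well, by 0.84 ± 0.10 (1.79-fold, adjusted p = 0.000494), but its gap was smallest at 60 min (0.57, against 1.04 at 90 min). VPS53 encodes a subunit of GARP, which receives vesicles from endosomes at the Golgi. It read 5.71, 5.61 and 5.72 in wild type and 5.98, 6.11 and 6.28 in tra1-2ts, a rise of 0.45 ± 0.10 (1.36-fold, adjusted p = 0.00814). Its GARP partners VPS51, VPS52 and VPS54 had differences of -0.05 ± 0.10, 0.15 ± 0.09 and -0.03 ± 0.10 and did not pass. VPS74, which holds glycosyltransferases in the Golgi, read 6.07, 6.09 and 6.001 in wild type and 6.53, 6.36 and 6.31 in tra1-2ts. It was higher by 0.35 ± 0.09 (1.27-fold, adjusted p = 0.0161), a call that ended without the tra1-2ts 60 min array (adjusted p = 0.0523) or the tra1-2ts 90 min array (0.0502).

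The other regulators did not pass. VPS1 (dynamin-like GTPase), VPS21 (Rab5-type GTPase), its exchange factor VPS9 and VPS13 (lipid transfer protein) had differences of 0.13 ± 0.10, 0.15 ± 0.10, -0.16 ± 0.09 and 0.26 ± 0.10. The 4 measured retromer genes, VPS5, VPS17, VPS29 and VPS35, whose products return sorting receptors to the Golgi, lay between -0.17 and 0.13, and PEP8, the retromer gene under another name, differed by 0.04 ± 0.12 (adjusted p = 0.817). None of these 5 passed. None of the 4 genes of the phosphatidylinositol 3-kinase passed: the kinase gene VPS34 differed by 0.25 ± 0.10, that of its protein kinase partner VPS15 by 0.28 ± 0.11, VPS30, shared with autophagy, by 0.09 ± 0.10, and VPS38, for the sorting form of the complex, by -0.21 ± 0.14. With arrays of the same time paired as a block, VPS15 and VPS34 passed (adjusted p = 0.0346 and 0.0471), as did VPS27 (0.0309). With array medians centred, these 3 passed and so did VPS13 and VPS24.

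ESCRT genes went in both directions. Of 8 measured under VPS names, 3 were higher and 1 lower, and with 11 under other names 5 of 19 were higher, 4 lower and 10 did not pass. That is 47.4% called, against 40.6% of all genes. The 3 are VPS25 and VPS36 of ESCRT-II and VPS20, the ESCRT-III subunit that ESCRT-II recruits. VPS20 read 5.78, 5.70 and 5.79 in wild type and 6.51, 6.60 and 6.39 in tra1-2ts, a rise of 0.74 ± 0.09 (1.67-fold, adjusted p = 0.000472). VPS36 read 5.90, 5.85 and 5.87 in wild type and 6.32, 6.71 and 6.61 in tra1-2ts, a rise of 0.68 ± 0.11 (1.60-fold, adjusted p = 0.00184). VPS25 read 6.62, 6.49 and 6.59 in wild type and 7.06, 7.002 and 6.94 in tra1-2ts, a rise of 0.44 ± 0.09 (1.35-fold, adjusted p = 0.00429). For all 3 every tra1-2ts array was above every wild-type array. SNF8, the remaining ESCRT-II gene, was higher too, by 0.34 ± 0.10 (adjusted p = 0.0309), and so was DID4 of ESCRT-III, by 0.30 ± 0.10 (adjusted p = 0.0351). Both calls were marginal. That of SNF8 ended when any array but tra1-2ts at 60 min was left out (adjusted p = 0.0564 to 0.132). That of DID4 ended when any array but wild type at 60 min was left out (0.0541 to 0.133).

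VPS60 was the lower one. Its product, related to ESCRT-III subunits, acts on the ATPase Vps4 through Vta1. VPS60 read 7.40, 7.48 and 7.44 in wild type and 6.83, 6.83 and 6.76 in tra1-2ts, with the smallest spread of the called falls (difference -0.64 ± 0.08, 1.55-fold lower, adjusted p = 0.000598). VTA1 was lower by 0.31 ± 0.08 (adjusted p = 0.0173), and DID2, an ESCRT-III-related regulator of Vps4, by 0.49 ± 0.09 (adjusted p = 0.00323). The VTA1 call ended without the 90 min array of tra1-2ts (adjusted p = 0.0734) or its 120 min array (0.0583). IST1, another regulator of Vps4, read 4.74 in both strains and did not pass, and VPS4 itself had a difference of 0.01 ± 0.10. VPS24 of ESCRT-III, VPS27 of ESCRT-0 and VPS28 of ESCRT-I had differences of 0.25 ± 0.10, 0.28 ± 0.11 and 0.16 ± 0.14 and did not pass, while SRN2 of ESCRT-I was called lower (adjusted p = 0.0138). Its tra1-2ts mean of 3.81 lay under the brightest mouse control, so the size, 0.54 ± 0.14, depends on the background, and the call ended without both 60 min arrays (0.0827) or both 90 min arrays (0.116). The uncalled genes under other names were SNF7 (0.18 ± 0.09), BRO1 (0.23 ± 0.09), MVB12 (0.19 ± 0.12), STP22 (-0.02 ± 0.09), HSE1 (-0.21 ± 0.15) and IST1.

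VPS73 and VPS55 had the largest falls among the VPS genes, and VPS68 was lower as well. VPS73, a gene of the sugar porter family named for a sorting defect, read 4.47, 4.88 and 4.74 in wild type and 3.998, 3.52 and 3.71 in tra1-2ts. It was lower by 0.95 ± 0.15 (1.94-fold, adjusted p = 0.00137), with a tra1-2ts mean of 3.74, under the brightest mouse control. VPS55 and VPS68 encode membrane proteins that form a complex in late endosomes, and both were lower. VPS55 read 9.04, 8.90 and 8.85 in wild type and 8.55, 8.04 and 8.02 in tra1-2ts (difference -0.73 ± 0.15, 1.66-fold lower, adjusted p = 0.00476). VPS68 read 9.19, 8.99 and 8.91 in wild type and 8.69, 8.59 and 8.46 in tra1-2ts (difference -0.45 ± 0.11, 1.36-fold lower, adjusted p = 0.0107). Both also read lower at 120 than at 60 min in each strain.

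VPS64 and VPS70 were higher. VPS64, also known for its part in arrest by pheromone, read 4.496, 4.64 and 4.47 in wild type and 5.04, 5.23 and 4.92 in tra1-2ts (difference 0.53 ± 0.11, 1.44-fold, adjusted p = 0.00463). VPS70 read 6.66, 6.48 and 6.29 in wild type and 6.90, 6.87 and 6.77 in tra1-2ts (difference 0.37 ± 0.11, 1.29-fold, adjusted p = 0.0274). The VPS70 call ended when any of 4 arrays was left out, wild type at 90 or 120 min or tra1-2ts at 60 or 90 min (adjusted p = 0.0661 to 0.0909). VPS62, VPS75 and VPS501 had differences of -0.11 ± 0.13, -0.06 ± 0.08 and 0.21 ± 0.11 and did not pass. Of the chromatin genes left out by name, VPS71 differed by -0.03 ± 0.09 and VPS72 by 0.23 ± 0.08 (adjusted p = 0.06).

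**Figure D3:**
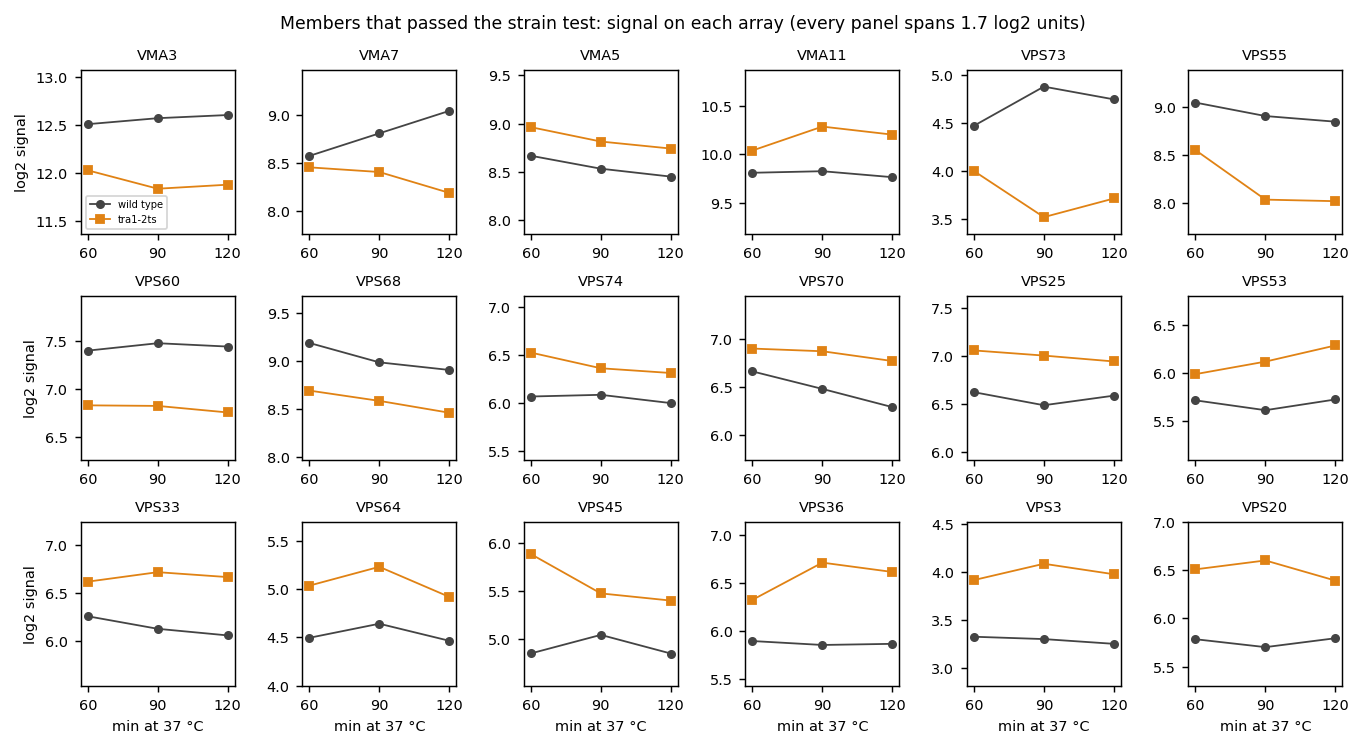
Log2 signal on each of the 6 arrays for the 18 members that passed the strain test, against minutes at 37 °C, with 1 array per strain and time. Circles are wild type and squares tra1-2ts, and every panel covers the same span of log2 units. In each panel the lines of the strains do not cross, and the gap of VMA7 widens from 0.12 at 60 min to 0.85 at 120 min.

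As families, the VPS genes had a positive median difference and the VMA genes one near 0. The median difference was 0.15 over the 39 VPS genes and 0.01 over the 14 VMA genes, against 0.00 over all genes tested. Of the VPS genes 27 had a positive difference and 12 a negative one, and of the VMA genes 7 and 7. At 60, 90 and 120 min the VPS median was 0.10, 0.17 and 0.22, and the VMA median 0.04, -0.10 and -0.02, so the VPS median was the higher one at each time. The gap between the family medians, 0.14, is small beside the range within either family, and it was not tested, since genes are not replicates of a condition. Within the VMA genes the V1 median was -0.19, and the Vo median 0.18 over 4 genes. With each array left out in turn, the gap ran from 0.09 to 0.23, and the VMA median from -0.10 to 0.06. Single arrays also set the VMA count, which was 2 without the wild-type 120 min array, 2 without that at 90 min and 1 when the 90 min array of tra1-2ts was left out. With quantile normalization over the tested genes, 2 VMA genes were higher and 1 lower, because VMA7 no longer passed (adjusted p = 0.0612).

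**Figure D4:**
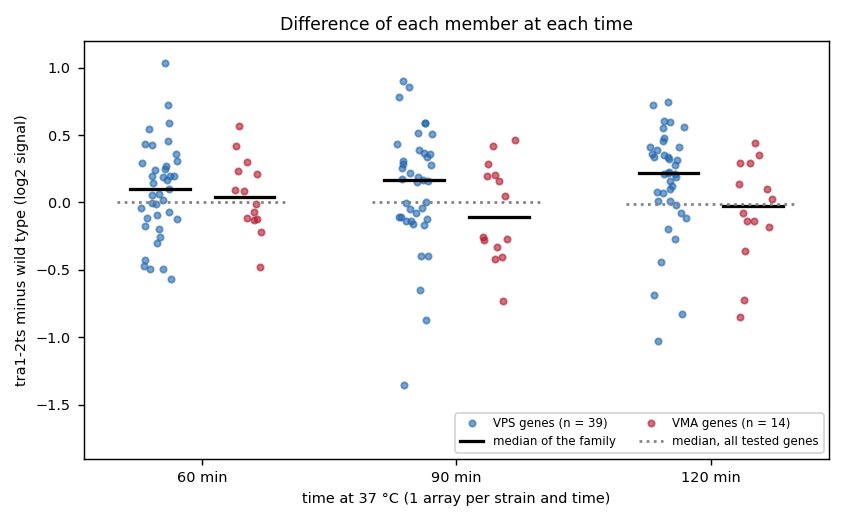
Signal of the tra1-2ts array minus that of wild type at 60, 90 and 120 min (log2 signal), 1 point per VPS gene (n = 39) or VMA gene (n = 14), spread sideways for legibility. Black lines are the family medians (VPS 0.10, 0.17 and 0.22; VMA 0.04, -0.10 and -0.02), and dotted lines the median of all tested genes.

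No member changed with time beyond the threshold. A slope over minutes shared by both strains was fitted, and 18 of 5551 genes passed, 0.324%, none of them a VPS or VMA gene. At an unadjusted p under 0.05 the slope reached 10 members, 18.9%, against 16.2% of all genes. The fitted slope was negative in 39 of 53 members, 73.6%, and in 52.9% of all genes. The smallest p belonged to VMA13, which read 9.35, 9.22 and 8.59 at 60, 90 and 120 min in wild type and 9.44, 9.43 and 8.95 in tra1-2ts. In both strains the 120 min array was the lowest, and the slope was -0.63 ± 0.14 per 60 min (adjusted p = 0.105). VMA1 read 9.56, 9.67 and 9.28 in wild type and 9.48, 9.40 and 8.93 in tra1-2ts, with a slope of -0.41 ± 0.14 (adjusted p = 0.223). The dimmer probe set of VMA1 read 8.73, 8.62 and 8.62 in wild type and 8.40, 8.05 and 8.16 in tra1-2ts, and its slope was not tested. VMA8 read 7.67, 7.69 and 7.32 in wild type and 7.55, 7.27 and 7.24 in tra1-2ts. Its slope was -0.33 ± 0.11 (adjusted p = 0.232). The fitted slope was negative in 7 of the 8 V1 genes and in 11 of the 14 VMA genes. The V1 gene VMA7 had a slope of 0.10 ± 0.16. VPS27, the ESCRT-0 gene, read 8.13, 7.87 and 7.78 in wild type and 8.32, 8.21 and 8.10 in tra1-2ts, and its slope of -0.28 ± 0.10 did not pass either (adjusted p = 0.227). VPS38 read 3.21, 2.88 and 2.75 against 2.78, 2.88 and 2.56, under the brightest mouse control throughout (slope -0.34 ± 0.12, adjusted p = 0.242).

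The slopes of the strains were then compared with each other, a fit that leaves 2 residual degrees of freedom. No gene of the 5551 passed this limma test, 0.0%, and at an unadjusted p under 0.05 it reached 392 genes, 7.06%, and 3 members. VMA7 had the smallest p among members: it went up by 0.47 from 60 to 120 min in wild type and down by 0.27 in tra1-2ts (slope difference -0.73 ± 0.19 per 60 min, adjusted p = 0.67). VPS17, a sorting nexin of retromer, read 6.21, 5.96 and 5.57 in wild type and 5.96, 5.80 and 5.93 in tra1-2ts. From 60 to 120 min it thus changed by -0.64 in wild type and by -0.03 in tra1-2ts (slope difference 0.61 ± 0.21, adjusted p = 0.67). VPS41 read 3.84, 4.01 and 4.05 in wild type and 4.15, 4.17 and 3.78 in tra1-2ts, near the mouse controls (adjusted p = 0.691). VPS28 and VPS45 followed, with slope differences of 0.46 ± 0.21 and -0.48 ± 0.25 (adjusted p = 0.722 and 0.739).

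**Figure D5:**
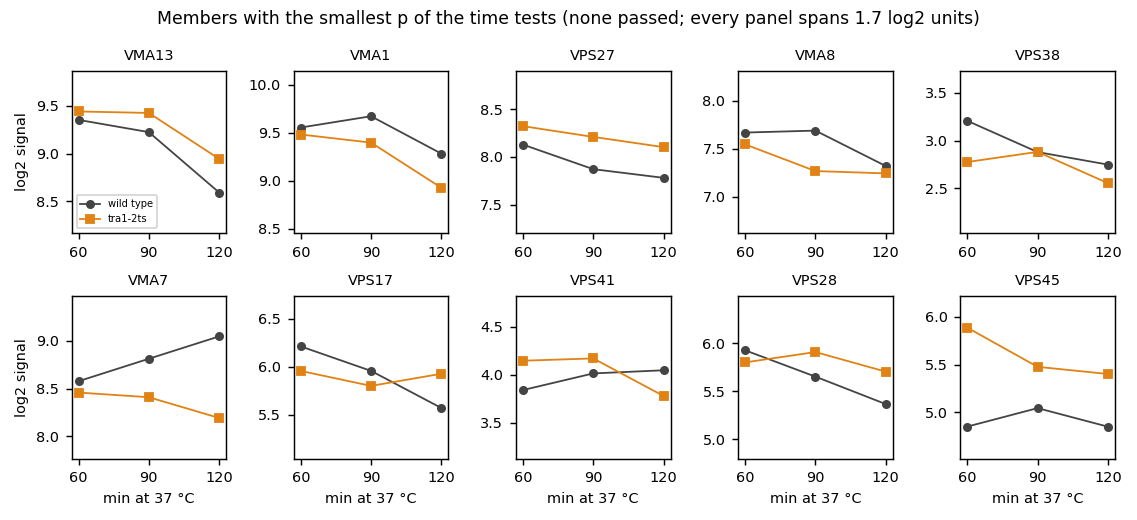
Log2 signal against minutes at 37 °C for the 5 members with the smallest p of the shared slope (upper row) and of the slope difference (lower row), 1 array per strain and time. Circles are wild type and squares tra1-2ts, and every panel covers the same span of log2 units. None of the 10 genes passed its test. VMA13 is lowest at 120 min in both strains, and the lines of VMA7 diverge.

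Sorting genes that carry other names were also called in both directions. Of 44 measured, 11 were higher, 4 lower and 29 did not pass, so 34.1% were called, against 40.6% of all genes. Their median was 0.13. The smallest p values belonged to PEP12 and to FIG4, a phosphatase that acts with the kinase Fab1 on a vacuolar phosphoinositide, which was higher by 0.60 ± 0.11 (adjusted p = 0.00279). DID2 followed, and then CCZ1, part of the exchange factor for Ypt7, which was higher by 0.37 ± 0.08 (adjusted p = 0.00658). MON1, the other subunit gene of that factor, went the other way, by -0.22 ± 0.09, and did not pass (adjusted p = 0.0921). FAB1 itself was lower by 0.42 ± 0.10 (adjusted p = 0.00839), and YPT7, the GTPase that recruits HOPS, was higher by 0.35 ± 0.08 (adjusted p = 0.0108, and 0.0503 without the tra1-2ts 90 min array). Among the hydrolases that this route delivers, 3 of 11 were higher, 2 lower and 6 did not pass (45.5% called, against 40.6% of all genes). The median was -0.05, with 8 of the 11 differences negative. PRB1, protease B, read 9.28, 9.06 and 9.08 in wild type and 10.30, 10.28 and 10.14 in tra1-2ts (2.15-fold, adjusted p = 0.000144), and PEP4, the protease that matures the others, rose by 0.66 ± 0.14 (1.58-fold, adjusted p = 0.00544). CPS1, carboxypeptidase S, was higher by 0.40 ± 0.11, and ATG42 and the acid trehalase gene ATH1 lower by 0.57 ± 0.12 and 0.43 ± 0.13. The CPS1 call ended without wild type at 90 or 120 min or tra1-2ts at 60 or 90 min (adjusted p = 0.0541 to 0.0688), and the ATH1 call without either 60 min or either 90 min array (0.0532 to 0.0925). Without both 90 min arrays the calls of FIG4 (adjusted p = 0.0526), CCZ1 (0.102), FAB1 (0.0934), YPT7 (0.131), PEP4 (0.0583) and ATG42 (0.0506) ended too, as did those of CPS1 (0.159) and ATH1 (0.157), and without both 120 min arrays those of FAB1 (0.0613) and CPS1 (0.0569). The ATH1 call also ended without both 60 min arrays (0.0945). PRC1, carboxypeptidase Y, the cargo by which VPS genes were found, had means of 10.37 (wild type) and 10.05 (tra1-2ts) and did not pass (difference -0.32 ± 0.13, adjusted p = 0.0818).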

How the data were processed

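Total RNA was labelled with a 3′ in vitro transcription kit, per the labels. The deposited log2 values, 1 per probe set and array, were made with RMA (R package oligo), per the submitters' processing notes; how probe sets were selected is not given in the sources used here. RMA equalises the distributions of the arrays, which hides any change shared by all transcripts.

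Of 6776 probe sets, 5668 name 1 gene by the platform annotation, 183 several and 925 none. All 5668 matched the RefSeq gene table of assembly R64 by gene ID, which gave the symbols. The brightest probe set per gene was kept, which left 5551 genes. No coordinates are given because no build is named for the array, and promoter and protein sequences were not analysed here. No columns were left unused.

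Tests used limma 3.58.1 in R 4.3.3 (linear fits, empirical Bayes, two-sided, Benjamini-Hochberg over all 5551 genes, threshold 0.05). They were also run on simulated data whose planted changes were larger than those of any member. That run therefore does not show how the tests handle changes as small as those of the members. The strain test fitted genotype alone, with 4 residual degrees of freedom. The slope test added minutes, and the slope difference their interaction. Errors after ± are limma's standard errors unless given as SD. With 3 arrays per strain, their number limits the precision. The number in an array's title marks its time, so same-numbered arrays are paired by time; their deviations from the strain means correlated across genes with r of 0.31, 0.0656 and 0.33 at 60, 90 and 120 min.

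Members and lists were chosen with earlier results of these data known. The rule for naming genes was every called VMA gene, up to 12 rises and 12 falls of VPS genes, the 5 members with the smallest p of each time test, and up to 4 called genes per list of other names. SNF8, DID4, VTA1, SRN2, IST1, SNF7, BRO1, MVB12, STP22, HSE1, PEP3, PEP5, VAM6, PEP8, MON1, FAB1, YPT7, STV1, VPH2, RTC5, OXR1, VOA1, PKR1, ATH1 and PRC1 were named after their values were seen where they fall outside it. Alternatives are the time block, time as a covariate, other scaling, filters on dim genes, moderation with a trend, other uses of probe sets, a threshold of 0.01, log2 of minutes, and each array or time left out.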

Additional observations from a re-analysis of the deposited data

How the results depend on the processing

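No called member, and none of the named genes under other names that passed, changed direction under any alternative run. A paired fit, with time as the replicate block, ended no member's call and brought 17 VPS and 4 VMA genes past the threshold. At a threshold of 0.01, 1 VMA gene (VMA3), 11 VPS genes and 1384 of all genes passed. Leaving out genes under the lower quartile (mean under 5.05) removed the called genes VPS3, VPS64 and VPS73 from the test and left 11 VPS calls. The uncalled VPS5, VPS8, VPS9, VPS38, VPS41, VPS51, VPS52 and VPS501 left the test as well, as did RTC5, DID2, SRN2 and ATH1. Without single arrays or both arrays of a time, the VPS count ran from 7 to 16, the VMA count from 1 to 4 (2 without both 120 min arrays) and the count of all genes from 1004 to 2214. The VPS median ran from 0.12 to 0.19, the VMA median from -0.0950 to 0.0635 (-0.0640 without both 60 min arrays) and their gap from 0.09 to 0.23. Across scalings the VPS median was 0.15 to 0.20 and the VMA median 0.01 to 0.06. For the time slope, the count of all genes ran from 0 to 12 without single arrays, with 0 VPS and VMA genes throughout. Leaving out arrays also tests with fewer samples. The level of the mouse controls limits 6 members whose mean in a strain lies under 3.93: VPS3, VPS5, VPS9, VPS38, VPS51 and VPS73.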

Other observations

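Genes next to each other on a chromosome were compared, with gene order from the RefSeq table of assembly R64. Of the 18 called members, 8 had a neighbouring measured gene that was called in the same direction, 44.4%, against 1081 of all 2251 called genes, 48.0%. The neighbours include SNU13 beside VMA3 (difference -0.61, adjusted p = 0.00307) and DPC29 beside VMA7 (difference -1.36, adjusted p = 0.000257). RIB3, beside VPS60, was lower by 0.50 (adjusted p = 0.00282), and EMT5, beside VPS53, was higher by 1.08 (adjusted p = 0.000951; all limma). No measured VPS or VMA gene neighbours another member.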
